A study of Homo sapiens with 4 samples.

Results

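Argonaute, TNRC6 and microRNA processing genes were followed in ovarian cancer spheres exposed to niclosamide. The 10 genes, TNRC6A, TNRC6B, TNRC6C, AGO1, AGO2, AGO3, AGO4, DICER1, DROSHA and DGCR8, were listed by their function, and every probe annotated to them was taken, which gave 21 probes of 27578 that carry 1 gene symbol (18665 genes in all). The list was drawn up when a difference of TNRC6A between 6 h and 0 h was already known, so the values below are a description and no test was run on them. The cells were CP70sps, spheres of the Cp70 ovarian cancer line picked by exclusion of a Hoechst dye and called tumour-initiating cells in the labels. They were grown unattached in serum-free medium with insulin, albumin, bFGF and EGF. All were given 3 µM niclosamide, an anthelmintic that uncouples mitochondrial respiration from ATP synthesis, for 0, 2, 4 or 6 h. Each time is 1 Illumina bead array of 48803 probes, so differences carry no replicate error. The 0 h array was the only reference, all cells came from 1 line, and time in culture and time on the drug cannot be told apart.

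MicroRNAs are cut from long primary transcripts in the nucleus by DROSHA with its RNA-binding partner DGCR8, and the exported hairpins are cut again in the cytoplasm by DICER1. The mature strand is held by an Argonaute protein, which pairs it with target mRNAs. Proteins of the TNRC6 family, also known as GW182, bind Argonaute through glycine-tryptophan repeats and bring in the CCR4-NOT and PAN2-PAN3 deadenylases, which shorten the poly(A) tail and silence the target.

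Only TNRC6A differed from its untreated level by at least 1.5-fold on probes above the detection threshold. The upstream sequences of TNRC6A and its paralogue TNRC6B are shown because of their detected probes. Those of TNRC6A stood higher at every later time and that of TNRC6B stayed near its starting level. The 250 bases before the annotated start of each gene, from RefSeq on GRCh38.p14, are written 5′ to 3′ with matches to the motifs searched in capitals. They lie at chr16:24729401-24729650 on the plus strand for TNRC6A and at chr22:40044584-40044833 on the plus strand for TNRC6B.
TNRC6A: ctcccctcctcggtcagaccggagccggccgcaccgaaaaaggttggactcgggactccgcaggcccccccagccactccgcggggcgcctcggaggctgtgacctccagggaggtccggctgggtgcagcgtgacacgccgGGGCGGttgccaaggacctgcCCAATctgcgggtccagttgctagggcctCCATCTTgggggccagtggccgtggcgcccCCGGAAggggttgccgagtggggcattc
TNRC6B: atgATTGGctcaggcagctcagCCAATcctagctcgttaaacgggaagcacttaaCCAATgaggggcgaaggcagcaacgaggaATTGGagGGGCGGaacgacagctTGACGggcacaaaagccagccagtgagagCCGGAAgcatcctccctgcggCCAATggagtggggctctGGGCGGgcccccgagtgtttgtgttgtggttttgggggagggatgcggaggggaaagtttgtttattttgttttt

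The motifs were searched on both strands: CCAAT (the CCAAT box), GGGCGG (the GC box), CCGGAA (the ETS core), CCATNTT (the YY1 core), TGACG (the cyclic AMP response core), TGATGNAA (the C/EBP-ATF composite) and CACGTG (the E-box). The TNRC6A stretch is 71.6% G and C and holds 1 match each to the CCAAT box, the GC box, the ETS core and the YY1 core. The TNRC6B stretch is 56.4% G and C and holds 5 CCAAT boxes, 2 GC boxes, 1 ETS core and 1 cyclic AMP response core, with 0 YY1 cores. Among 35116 such windows of all genes, 32% hold a CCAAT box, 42.6% a GC box, 14.5% an ETS core, 11.6% a YY1 core and 21.2% the cyclic AMP response core. Neither stretch has the C/EBP-ATF composite (3.14% of windows) or the E-box (6.34%). These shares are of windows with at least 1 match, not with several, and the windows were not matched for G and C. Whether the motifs bear on the levels of the 2 genes was not tested. No 2 of the matches shown overlap. The RefSeq promoter window of TNRC6B, which runs a little past the start, shares 197 bases with that of TNRC6B-DT, a long noncoding RNA gene read from the opposite strand.

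The arrays were alike in detection. Probes with a detection p under 0.01 against the negative controls of their array made up between 28.3% and 29.6% of each. Of the 21 member probes, 11 were detected on all 4 arrays, and these cover 8 of the 10 genes. A TNRC6C probe was detected on 3 arrays and the AGO4 probe on 2. The other 8 probes were detected on 0 arrays. Of 9 epithelial and ovarian carcinoma markers, KRT18, KRT19 and EPCAM were detected on every array, whereas PAX8, WT1, MUC16, CDH1 and KRT7 were detected on none and KRT8 on 1. ALDH1A1 was the only 1 of 5 tumour-initiating cell markers detected, with PROM1, CD44, KIT and ABCG2 on 0 arrays. Of 5 fibroblast markers 4 were detected on all arrays (COL1A2, COL3A1, DCN and LUM, with log2 levels of COL1A2 between 11.66 and 12.28), and the 9 leukocyte, endothelial and erythroid markers on none. Fewer cells of a type and less RNA per cell cannot be told apart in these bulk samples.

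**Figure D1:**
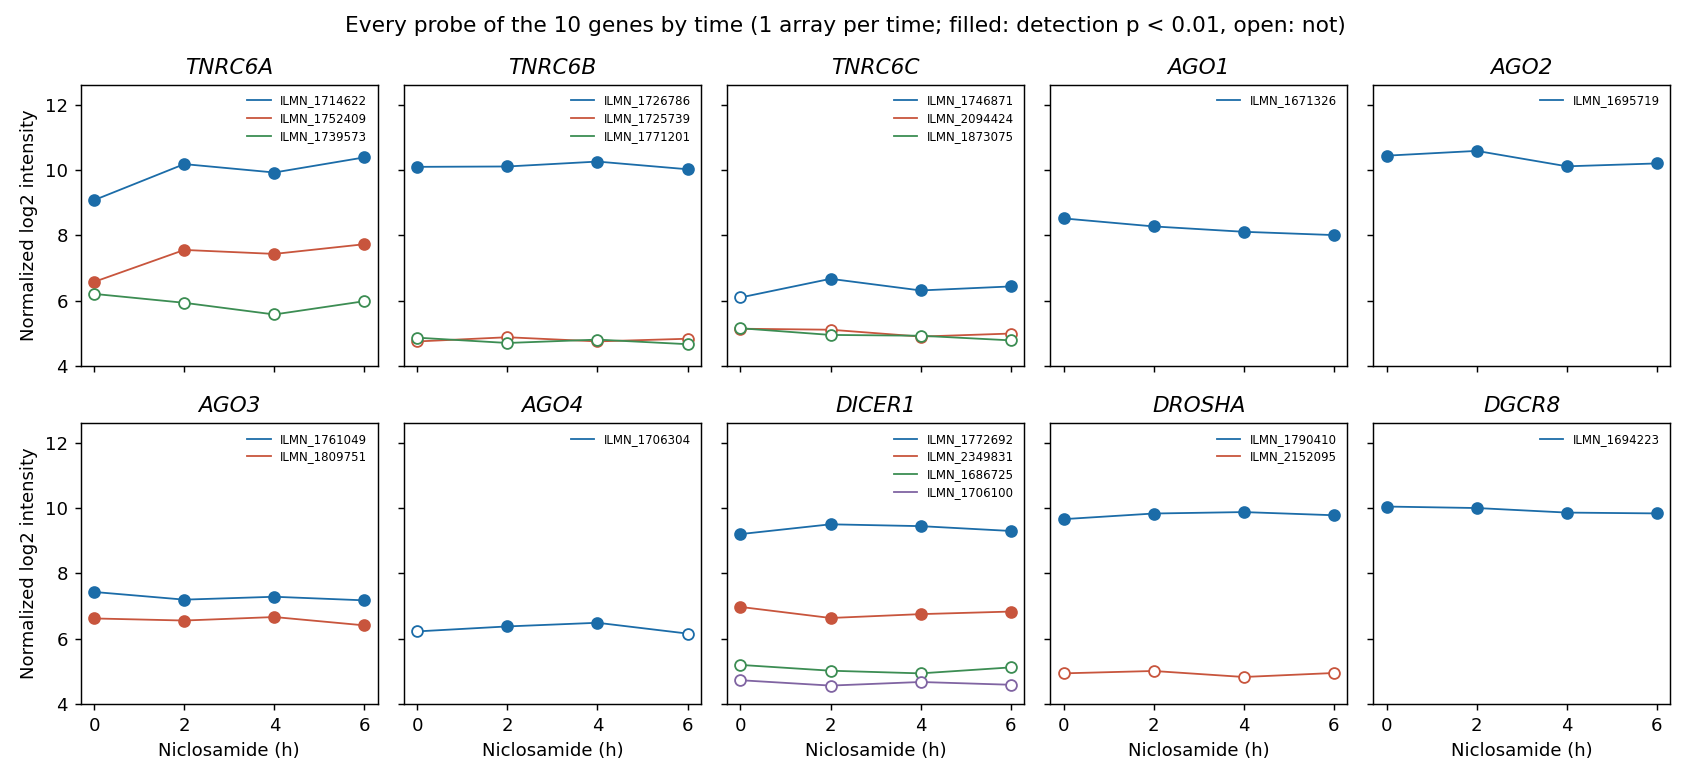
Normalized log2 intensity of every probe of the 10 genes against hours of niclosamide, with 1 array per time and no error bars. Filled points have a detection p under 0.01 and open points do not. The upper pair of TNRC6A lines steps up between 0 h and 2 h. Of the other lines, the third TNRC6A probe, with open points, lies at -0.63 from 0 h at 4 h, the brightest TNRC6C probe is 0.57 higher at 2 h from an open point at 0 h, and AGO1 lies at -0.51 at 6 h.

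TNRC6A, which encodes the founding GW182 protein, has 3 probes. The brightest, ILMN_1714622, read 9.08, 10.18, 9.92 and 10.38 on the normalized log2 scale at 0, 2, 4 and 6 h. The second, ILMN_1752409, read 6.58, 7.55, 7.43 and 7.73 in the same order. On both probes the 0 h array was the lowest, 6 h the highest and 4 h the lowest of the treated times. The 4 h and 6 h values lay within the robust spread of all probes from 2 h (0.274 and 0.217). The place of 2 h in this order therefore cannot be read. The differences from 0 h were 1.10 at 2 h, 0.84 at 4 h and 1.31 at 6 h on the brightest probe, or 2.15-fold, 1.80-fold and 2.47-fold higher. The second probe was 1.97-fold, 1.81-fold and 2.22-fold higher. The third, ILMN_1739573, read 6.21, 5.94, 5.58 and 5.99 and was not above the detection threshold on any array, with detection p from 0.0119 to 0.0264. Its readings were lower at every later time than at 0 h and, being below the threshold on both sides, carry no fold.

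The same step appears before any normalization. The non-normalized intensity of the brightest TNRC6A probe was 546, 1165, 1061 and 1410 units in order of time. For the second probe it was 132, 225, 221 and 262 units. In the processed values of the authors these became 582, 1200.4, 1011 and 1378 units for the brightest probe and 137, 229, 214 and 253 for the second. In both versions every treated array lay above the 0 h array on both probes.

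**Figure D2:**
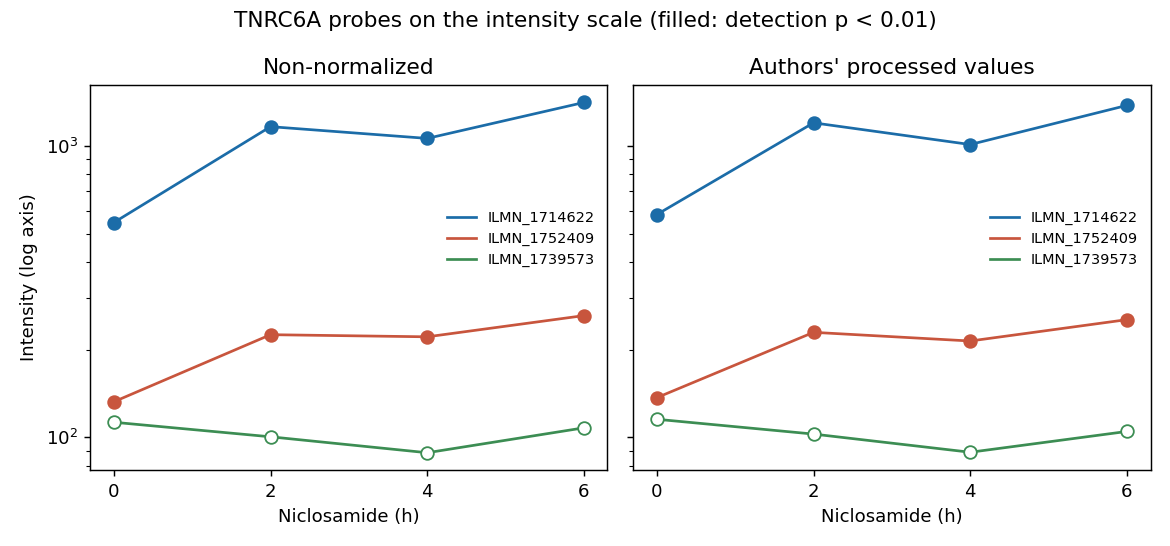
Intensity of the 3 TNRC6A probes by time on a log axis, as deposited without normalization (left) and as processed by the authors (right), 1 array per time. Filled points have a detection p under 0.01. The upper 2 probes are higher at 2, 4 and 6 h than at 0 h in both panels, and the dimmest stays near 100 units, between 88.5 and 113 without normalization.

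Among all named probes detected on both arrays, the brightest TNRC6A probe ranked 109th from the top of 11559 at 2 h, 70th of 11725 at 4 h and 62nd of 11444 at 6 h. The second probe ranked 176th, 66th and 118th. These 3 comparisons share the 0 h array and are not independent of each other. In 2021 genes with at least 2 probes detected on all arrays, 4 (0.198%) had every detected probe at least 1.5-fold higher at 2, 4 and 6 h. The 4 were TNRC6A, MAFG, NPIPA1 and PWWP2B, and since the members were chosen with the 6 h value in view this places TNRC6A without supporting it.

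TNRC6B, a paralogue with the same repeats and partners, was detected by 1 of its 3 probes, ILMN_1726786. It read 10.09, 10.11, 10.26 and 10.02 in order of time, so that the 4 arrays span less than the step seen in TNRC6A. The differences from 0 h were 0.01, 0.16 and -0.07, and the last turned to 0.04 when arrays were scaled to 1 median. The other TNRC6B probes, between 4.67 and 4.88, were not detected on any array.

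TNRC6C, the remaining paralogue, sat near the detection limit. Its brightest probe, ILMN_1746871, read 6.10 at 0 h, where it was not above the threshold, then 6.67, 6.31 and 6.44 at 2, 4 and 6 h, where it was. Set against the lowest detected level of the 0 h array, 6.26, it was at least 1.33-fold higher at 2 h, 1.04-fold at 4 h and 1.13-fold at 6 h. The other 2 TNRC6C probes, between 4.79 and 5.16, were detected on 0 arrays.

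AGO1, AGO2 and AGO3 stood below their untreated level at 6 h, by less than 1.5-fold. AGO1, on 1 probe, read 8.52, 8.27, 8.11 and 8.01 at 0, 2, 4 and 6 h. Each later array was lower than the one before, by -0.24, -0.16 and -0.10. These steps lay within the robust spread of all probes (0.383, 0.274 and 0.236), so the order of neighbouring times cannot be read. At 6 h AGO1 stood at -0.51 from 0 h, a level 1.42 times lower. The robust spread of all probes for 6 h against 0 h was 0.413, and the AGO1 probe ranked 1361st from the lowest of 11444. AGO2, which encodes the Argonaute best known for cutting its target, read 10.44, 10.58, 10.11 and 10.20. It was higher at 2 h by 0.15 and stood at -0.33 at 4 h and -0.24 at 6 h.

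The AGO3 probes read 7.43, 7.20, 7.29 and 7.18 on ILMN_1761049 and 6.62, 6.56, 6.67 and 6.41 on ILMN_1809751. They stood at -0.26 and -0.21 from 0 h at 6 h, the lowest of the 4 arrays for both, though the first was only -0.02 from 2 h. At 4 h they differed in sign, with -0.15 on the first and 0.04 on the second. AGO4 was above the threshold at 2 h (6.38) and 4 h (6.49) and not at 0 h (6.23) or 6 h (6.16). Against the lowest detected level of the 0 h array it was at least 1.09-fold higher at 2 h and 1.17-fold at 4 h. In the RefSeq annotation AGO4, AGO1 and AGO3 are consecutive protein-coding genes on chromosome 1, and AGO1 and AGO3 read lower than at 0 h at 6 h while AGO4 was not above the detection threshold on either array.

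All 4 Argonaute probes detected at 6 h and 0 h, from 3 genes, were below 0 h at 6 h, with a median log2 difference of -0.25. Of all named probes, 51.1% were below 0 h in that comparison. At 4 h the count was 3 of 4, against 49.3% of all probes. With each array scaled to 1 median it stayed 4 of 4 at 6 h, where 41% of all probes were below 0 h, and was 2 of 4 at 4 h, where 33.5% were, since an AGO3 probe turned from -0.15 to 0.04. Between 2 h and 6 h, a comparison without the 0 h array, all 4 were lower at the later time (50.5% of all probes), with AGO2 at -0.38, AGO1 at -0.26, and the AGO3 probes at -0.02 and -0.15. Median scaling turned the first of these AGO3 values to 0.01, which left 3 of 4 lower (45.2% of all probes). The 6 h array is shared by the comparisons of 6 h with 0 h and with 2 h. In the remaining comparisons, 3 of 4 were lower at 2 h than at 0 h (51.5% of all probes). From 4 h to 6 h, 3 of 4 were lower (51.7%). From 2 h to 4 h only 2 of 5 Argonaute probes were lower (48.1%), with a median of 0.09.

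On the detected probes of the processing genes the largest difference from 0 h was 1.26-fold, on a DICER1 probe at 2 h. DROSHA, the nuclear ribonuclease, read 9.66, 9.83, 9.88 and 9.78 on its detected probe, with differences of 0.17, 0.22 and 0.12 from 0 h. DGCR8, its partner, read 10.05, 10.00, 9.86 and 9.84, and stood at -0.05, -0.18 and -0.21. DICER1, the cytoplasmic ribonuclease, had 2 detected probes of 4 that disagreed in sign at every time. ILMN_1772692 read 9.20, 9.50, 9.45 and 9.30, above 0 h at each later time. ILMN_2349831 read 6.98, 6.64, 6.76 and 6.84, below 0 h at each later time, though its -0.14 at 6 h became 0.02 with median scaling. A direction for DICER1 therefore cannot be read from these probes. The second DROSHA probe and the other 2 DICER1 probes, between 4.57 and 5.20, were detected on 0 arrays.

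Counted over the 11 member probes detected at both times, 2 were at least 1.5-fold higher at 2 h, at 4 h and at 6 h, both of TNRC6A each time. Of all named probes, 7.81% passed this fold at 2 h, 3.91% at 4 h and 9.23% at 6 h. At least 1.5-fold lower were 0 member probes at each time, where the share of all probes was 7.48%, 4.55% and 9.31%. The stricter fold of 2 was passed upward by 1 member probe at 2 h (1.39% of all probes), 0 at 4 h (0.23%) and 2 at 6 h (1.71%). It was passed downward by 0 at each time (1.19%, 0.401% and 1.72%). The median over the member probes was 0.01 at 2 h, 0.04 at 4 h and -0.14 at 6 h, beside -0.01, 0.00 and -0.01 for all named probes. With median scaling, which moves the median of all probes to 0.15 at 4 h, the shares of all probes became 10.8% higher and 5.55% lower at 2 h, 9.83% and 2.04% at 4 h, and 13.9% and 6.06% at 6 h. The member counts at 1.5-fold stayed at 2 and 0 there. Past 2-fold higher it gave both TNRC6A probes at 2 h (2.08% of all probes), at 4 h (0.674%) and at 6 h (2.95%), so that the count at 4 h went from 0 to 2. Without background correction 1 of them passed 2-fold at 6 h (1.17%), with the second at 0.89.

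**Figure D3:**
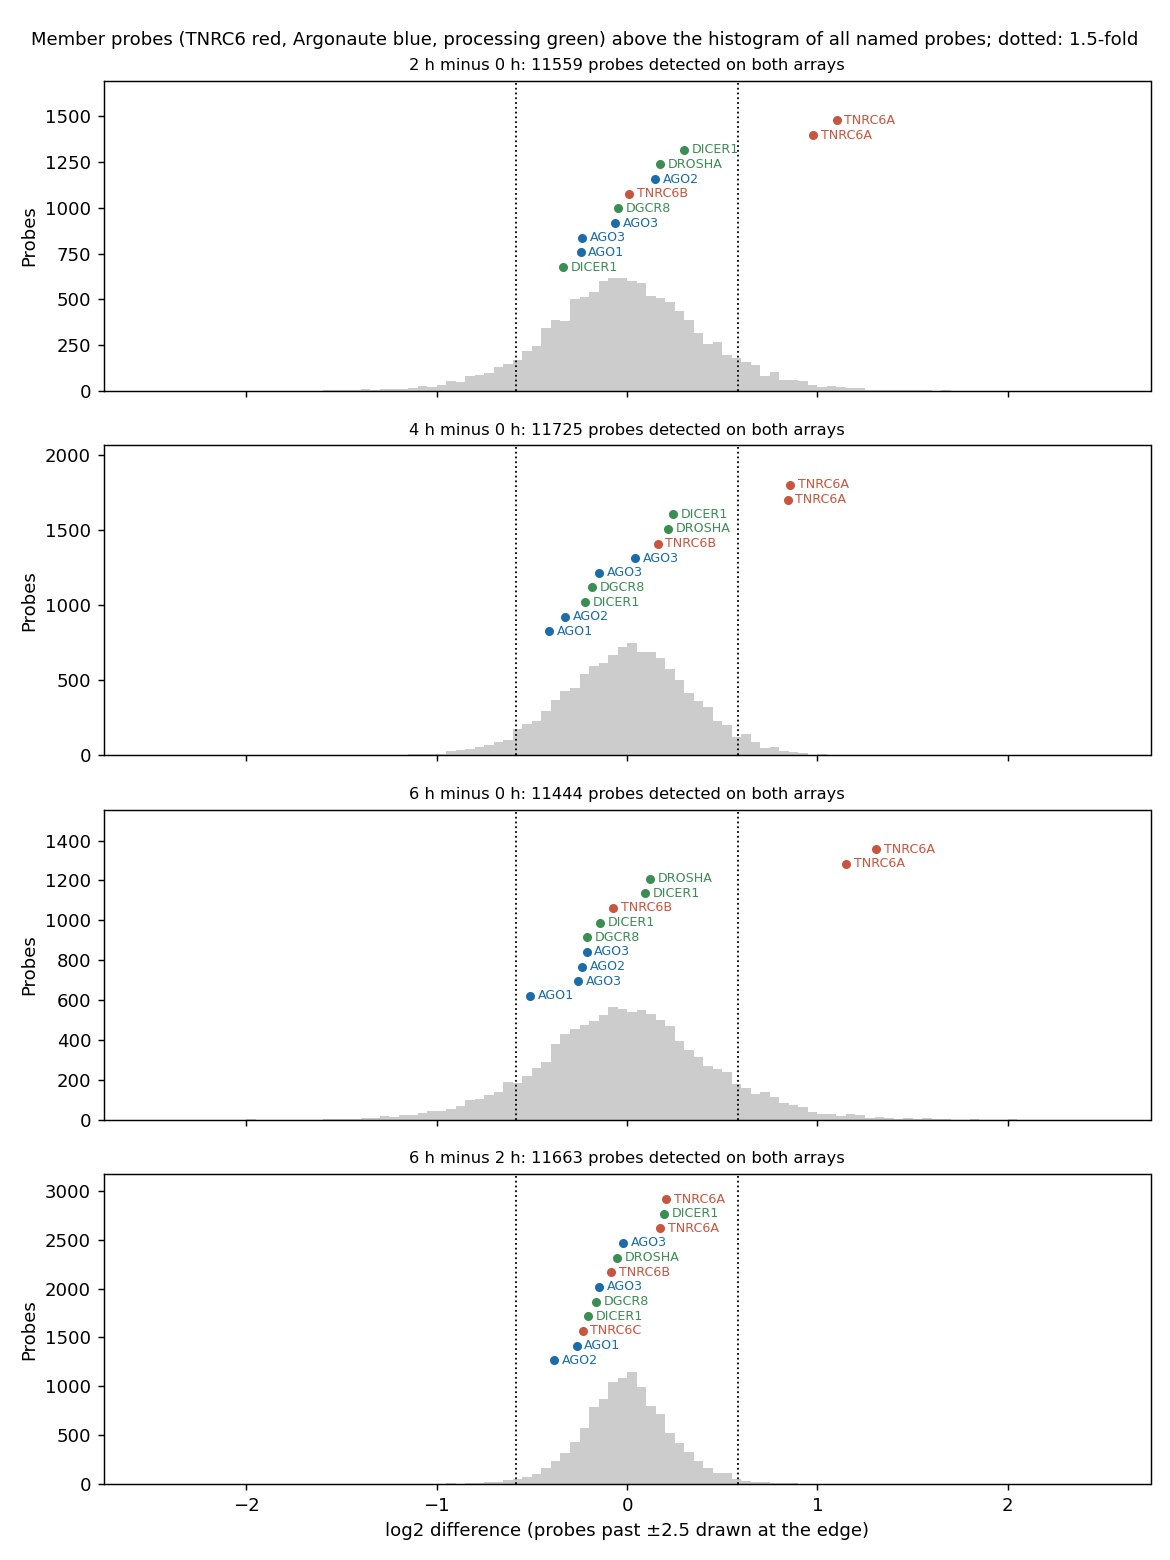
Histograms of the log2 difference of all named probes detected on both arrays (vertical axis, number of probes) for 2, 4 and 6 h against 0 h and for 6 h against 2 h. Labelled points give the member probes at their own difference, stacked above the histogram with no meaning to their height. Both TNRC6A probes lie to the right of the dotted 1.5-fold line in the first 3 panels and inside it in the last.

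The 3 comparisons among the treated arrays showed 0 member probes past 1.5-fold. Between 2 h and 4 h, 13 member probes from all 10 genes were detected at both times, and their differences ran from -0.47 for AGO2 to 0.15 for TNRC6B. Of all probes 2.06% were at least 1.5-fold higher and 2.91% lower. Between 2 h and 6 h, 12 member probes ran from -0.38 to 0.21, and 1.43% of all probes were higher and 1.43% lower. The TNRC6A probes were 0.21 and 0.17 higher at 6 h than at 2 h, and -0.26 and -0.12 from 2 h at 4 h. Between 4 h and 6 h, a comparison added after the others had been seen, 12 member probes ran from -0.26 for an AGO3 probe to 0.46 for the brightest TNRC6A probe, whose second probe was at 0.30, and 1.86% of all probes were at least 1.5-fold higher and 1.09% lower. The difference of TNRC6A past 1.5-fold therefore appears in comparisons with the 0 h array, which is 1 array. The robust spread of all probes was 0.383, 0.328 and 0.413 for 2, 4 and 6 h against 0 h and 0.217 for 6 h against 2 h. For 6 h against 4 h it was 0.236. The part of the 0 h array in the TNRC6A value was not tested.

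Genes with a time course most like TNRC6A were SSBP3, MGAT4B, PKMYT1, PWWP2B and BCL2L1. They were ranked by Euclidean distance over the differences from 0 h at 2, 4 and 6 h, averaged over probes, across 4 arrays and 2020 candidate genes with at least 2 detected probes. Distances ran from 0.267 for SSBP3 to 0.366 for BCL2L1. TNRC6A averaged 1.04, 0.85 and 1.23 at the 3 times and BCL2L1, which encodes an anti-apoptotic protein, 0.87, 0.63 and 0.99. Probes of BCL2L1 (1.02 and 0.96 at 6 h) and of PWWP2B (1.24 and 1.22) read alike, as those of TNRC6A did. Those of SSBP3 (0.50 and 1.65), MGAT4B (1.70 and 0.77) and PKMYT1 (1.24 and 0.74) lay further apart.

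Genes of the microRNA pathway were read from 8 lists, at 6 h against 0 h and on probes detected on both arrays. In that comparison 9.23% of all named probes were at least 1.5-fold higher and 9.31% lower. Deadenylation genes, whose complexes TNRC6 proteins recruit, had 4 of 24 probes at least 1.5-fold higher and 0 lower, with a median of 0.02. The 4 belonged to CNOT3, a CCR4-NOT subunit (1.12), PAN3, the partner of the PAN2 nuclease (0.69), and CNOT4 (0.67 and 0.73, with another probe at -0.14). Decapping, repression and decay genes had 1 of 14 higher, the decapping cofactor gene DCP1A at 0.99, and 0 lower, with a median of 0.12. CNOT3 read 9.14 at 0 h and 10.33, 9.81 and 10.26 later. The 6 h value of CNOT3 was -0.06 from 2 h, where the robust spread of all probes was 0.217, so which was higher cannot be read. DCP1A read 9.26, 9.89, 9.85 and 10.25 in order of time, with 0 h lowest and 6 h highest. Its 4 h value was -0.03 from 2 h, where the robust spread of all probes was 0.274, so the order of those times cannot be read.

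Upstream of Argonaute, nuclear processing and export partners had 0 of 13 probes higher and 2 lower, with a median of -0.36. These were HNRNPA1, an RNA-binding protein of primary transcripts, at -0.70 (second probe -0.26) and KHSRP, which binds hairpin loops, at -0.61. HNRNPA1 has processed copies in the genome that such a probe may also read. With median scaling 0 of the 13 probes were lower by this fold. The list of Dicer partners and Argonaute loading or import had 2 of 16 higher and 2 lower, with a median of 0.30. FXR2, a fragile X family gene, was at 1.05. The Dicer partner gene TARBP2 was at -0.84 on one probe and 0.46 on another. WTIP, of a LIM-domain family that binds Argonaute, read -1.01 and 0.94 on its probes. Control of let-7 precursors had 1 of 6 higher and 0 lower, with a median of 0.08, and the uridylyl transferase gene TUT4 was at 0.75 and 0.49. Probes of the 4 PIWI genes were detected on neither array.

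Much-studied let-7 targets had 3 of 14 probes higher and 3 lower, with a median of -0.17. This list includes DICER1, itself a member, and LIN28B, which is also counted in the control of let-7 precursors. HMGA1, an architectural chromatin protein gene, was at 1.40, CDC34 at 0.67 and IGF2BP2 at 0.63, whereas MYC was at -0.66 and -0.82. The remaining lower probe, of HMGA2, was at -0.59 (second probe -0.42) and is named after its value was seen. Like these, microRNA host transcripts had members on both sides, with 2 of 9 higher, 1 lower and a median of -0.11. The higher ones were H19 at 0.82 and the dimmer CTDSP1 probe at 0.85, which read 6.65 at 0 h. The brighter CTDSP1 probe, 10.30 at 0 h, was at -0.49, so the probes of CTDSP1 disagreed in sign. The probe lower by this fold was that of VMP1, at -0.60. Mature microRNAs were not measured. Whether microRNAs follow the level of the host transcripts they lie in was not tested. The 5p strand of 1 microRNA encoded inside each of these 3 hosts is given from RefSeq on GRCh38.p14, with the seed (bases 2 to 8) in capitals.
miR-26b-5p, in CTDSP1 at chr2:218402657-218402677 (plus strand): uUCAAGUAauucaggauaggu
miR-675-5p, in H19 at chr11:1996800-1996822 (minus strand): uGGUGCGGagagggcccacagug
miR-21-5p, in VMP1 at chr17:59841273-59841294 (plus strand): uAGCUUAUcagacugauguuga
The seeds of the 3 differ.

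**Figure D4:**
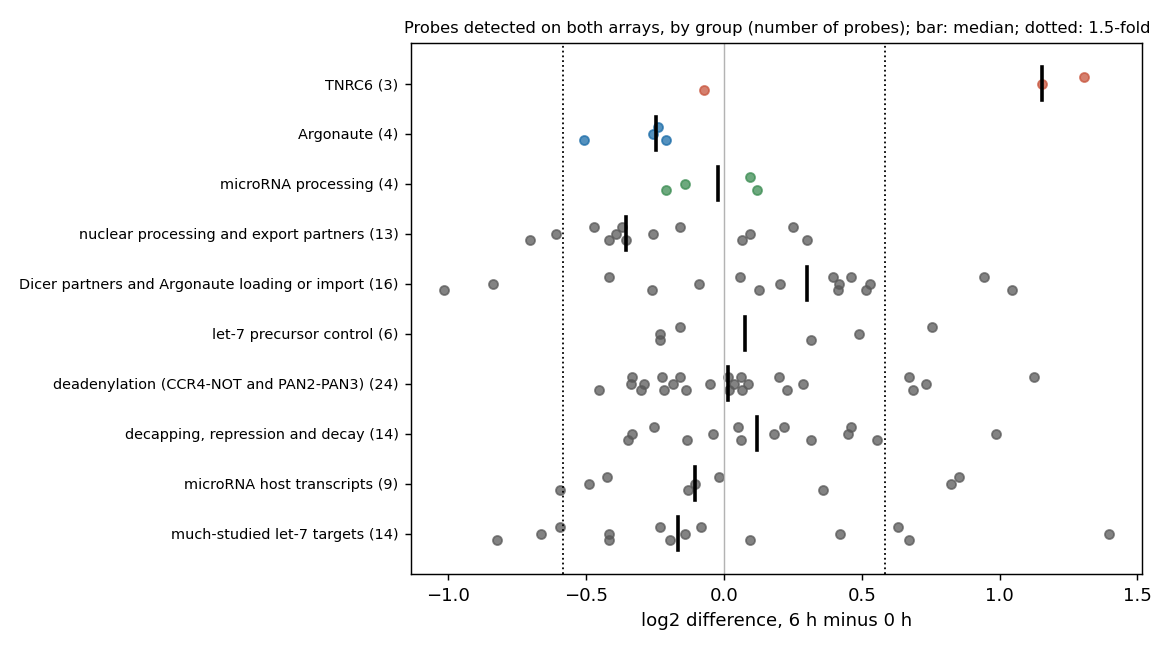
Log2 difference between 6 h and 0 h (horizontal axis) of each probe detected on both arrays, by group, with the number of probes in brackets, bars at the group medians and dotted lines at 1.5-fold. The TNRC6 median, 1.15, is that of 3 probes, 2 of them of TNRC6A. Argonaute probes lie left of 0 and processing probes on both sides of it.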

How the data were processed

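Total RNA was labelled with biotin and hybridized to Illumina bead arrays, 1 per time. The deposited non-normalized file gives an intensity per probe, and BeadStudio is the tool named in the submitters' processing notes (version not given in the sources used here). Beside it stands a detection p-value, per the file headers, taken here as measured against negative controls. The processed intensity values of the authors equal a quantile normalization of these within 1.46% at every probe.

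Intensities were background-corrected by normexp with negative controls inferred from the detection p-values, given an offset of 16, quantile normalized and taken to log2 (neqc, limma 3.58.1, R 4.3.3). The calculation was tested on simulated copies of the 0 h array with added noise, in which only bright probes were raised. That test does not cover dim probes. Probes were named through the platform annotation, updated by Entrez identifier to RefSeq symbols (27541 of 27591 matched), and 21212 probes are unnamed here. Detection means a p under 0.01 on that array. Folds of 1.5 and 2 were counted without a test, since each time has 1 array, and 4 arrays limit the precision of every value. A probe detected on 1 of 2 arrays gave a bound: its level where detected against the higher of its own level and the lowest detected level on the other array. The members and all lists were chosen with earlier results of these data known.

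Named were all member probes, up to 4 members of each list at least 1.5-fold different at 6 h against 0 h, and the 5 genes nearest to TNRC6A in time course. Alternatives were median scaling, no background correction, an offset of 50, the authors' values, a detection p under 0.05, and no detection filter. The comparison of 6 h with 4 h, and these alternatives for counts at 2-fold and of Argonaute probes below an earlier array, were added after seeing the data.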

Additional observations from a re-analysis of the deposited data

How the results depend on the processing

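The 2 detected TNRC6A probes stayed at least 1.5-fold above 0 h at 2, 4 and 6 h with median scaling, without background correction, with an offset of 50 and in the authors' values. The setting without background correction is a quantile normalization, which the authors' values equal within 1.46%. These 2 settings are therefore nearly the same here and below and do not count separately. Over these settings the brightest probe ranged from 1.05 to 1.20 at 2 h, 0.80 to 1.03 at 4 h and 1.24 to 1.44 at 6 h, and the second from 0.74 to 1.09, 0.65 to 1.03 and 0.89 to 1.30. Member probes at least 2-fold higher, counted by setting after the data were seen, became 2 at 2 h and 2 at 4 h with median scaling, and 1 at 6 h without background correction, with an offset of 50 and in the authors' values. A detection p under 0.05 added 1 member probe at least 1.5-fold lower at 4 h, as did taking all probes. It is the dimmest TNRC6A probe, at -0.63. At 6 h, let-7 target probes at least 1.5-fold lower went from 3 to 2 with median scaling and without background correction. They were also 2 with an offset of 50 and in the authors' values. A detection p under 0.05, or taking all probes, gave 4. Deadenylation probes at least 1.5-fold higher went from 4 to 3 without background correction, with an offset of 50 and in the authors' values. With median scaling, probes past 1.5-fold at 6 h became 4 higher for Dicer partners and Argonaute loading or import, 2 for let-7 precursor control and 3 for decapping, repression and decay, and 0 lower for nuclear processing and export partners and 0 for microRNA host transcripts. Taking all probes gave 1 lower for decapping, repression and decay, the undetected DDX6 at -0.87. The same scaling turned the sign of 7 of 70 member values, each within 0.15 of 0 in the report: against 0 h, an AGO3 probe and DGCR8 at 2 h, an AGO3 probe at 4 h, and TNRC6B and a DICER1 probe at 6 h, and against 2 h, a DICER1 probe at 4 h and an AGO3 probe at 6 h. Without background correction, with an offset of 50 and in the authors' values 0 signs turned. No paired analysis was possible because each time has 1 array. Signal over background limits TNRC6C, AGO4 and the dimmest TNRC6A probe, and with 1 array per time no replicate can be left out.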
